A study of Mus musculus with 8 samples.

Results

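Serine proteases of the Prss and Tmprss families and inhibitors of the serpin superfamily were followed through mouse spermatogenesis. The members are the genes whose current symbol is Prss or Tmprss followed by a number, or Serpin with a clade letter from a to i and a number, and which have a probe set annotated to that gene alone. The rule took 116 of 45101 probe sets and 83 of 18193 genes. These were 43 proteases, of which 31 are Prss and 12 Tmprss genes, and 40 serpins. Transcripts were measured on 8 Mouse 430 2.0 arrays, 2 for each stage: type A spermatogonia, then type B spermatogonia, then spermatocytes at pachytene, then round spermatids. All groups were total RNA from BL/6-129 mice, a mixed background, with no treatment or mutation named in the labels. Duplicates came from independent germ cell preparations. The sources used here give neither the age of the mice nor how each stage was isolated and how pure it was.

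Trypsin-like serine proteases cut their substrates with a catalytic serine and are usually made as inactive precursors. In the testis, several of them sit in the acrosome, the secretory vesicle over the sperm nucleus, or on the sperm surface, and some take part in fertilisation or in the maturation of other sperm proteins. Serpins are single-use inhibitors that trap a protease through an exposed loop, although a few, such as the collagen chaperone Serpinh1, inhibit no protease. Spermatogonia divide before meiosis, pachytene spermatocytes are in meiotic prophase, and round spermatids are the haploid cells in which the acrosome forms.

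Values are array signals scaled by the authors to a common mean on each array, so a change is measured against the other RNA on that array. Signals of different probe sets are not comparable with each other. Signal summed over 6 pachytene markers was low in spermatogonia except on type B replicate 2, and as high in spermatids as in pachytene cells. Summed over 7 spermatid markers, it was highest in spermatids. Sums of spermatogonial markers did not follow the labels throughout. The 4 undifferentiated markers measured summed to 1518 and 1390 in type A and 1624 and 1485 in pachytene cells. Of these, 1 was higher and 2 lower in pachytene cells than in type B. The 4 differentiating markers summed highest in spermatids, at 2969 and 3056, with 1 higher and 3 lower there than in type A. The pachytene markers summed to 471.2 and 381.8 in type A, 514.9 and 7989 in type B, 15940 and 17240 in pachytene cells, and 18090 and 17770 in spermatids. The spermatid markers summed to 118.4 and 97.6, 85.2 and 1554, 2236 and 2684, and 23090 and 27450 over the same arrays. Type B replicate 2 thus held 7989 for pachytene markers against 514.9 in its duplicate. Pachytene steps of most proteases that rose are also given without it. Those of the serpins and of other genes such as Acr and Spink2 are not. Somatic markers were present too. Collagens and other markers of peritubular and stromal cells summed to 795.7 to 1318 in the later stages, against 11780 to 18170 in spermatogonia, and Sertoli cell markers to 5066 to 9278 in spermatogonia, 3124 and 4055 in pachytene cells, and 728.2 and 827.3 in spermatids. In such bulk samples, fewer cells of a type and less RNA per cell cannot be told apart. None of these markers was at 0, and the part of other cells in the results was not tested except where values are given beside them.

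From type A spermatogonia to round spermatids, more proteases were higher than lower and more serpins lower than higher. Of the 45 members with enough signal to be tested, 28 were proteases and 17 serpins. In round spermatids against type A spermatogonia, 15 proteases were higher and 4 lower, and 2 serpins were higher and 9 lower (limma, adjusted p under 0.05). Over all 14155 genes tested, 28.2% were higher and 41.9% lower, and the lists were not tested against each other. The median log2 change was 1.54 for the proteases and -1.14 for the serpins, beside -0.31 for all genes. The split depended in part on the scaling. With quantile normalization the counts were 18 proteases higher and 2 lower, and 6 serpins higher and 9 lower, and with each array centred on its 75th percentile they were 19 and 2, and 5 and 9. Those settings moved the median of all genes by 0.25 and 0.42. Shares of all genes called under the alternative settings are not given here. These counts therefore do not show whether members moved more than other genes. Round spermatids were the stage of the highest mean signal for 15 of 28 proteases (53.6%) and 5 of 17 serpins (29.4%), beside 25.7% of all genes tested. Type B spermatogonia were that stage for 4 proteases (14.3%) and 6 serpins (35.3%), beside 18.6% of all genes tested. Of the members highest in spermatids, Prss27, Prss37, Prss52, Prss53 and Serpinc1 entered the test through the 2 spermatid arrays alone. The filter thus favoured spermatids for them, and Prss37 and Prss52 are also among the 15 proteases higher against type A.

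**Figure D1:**
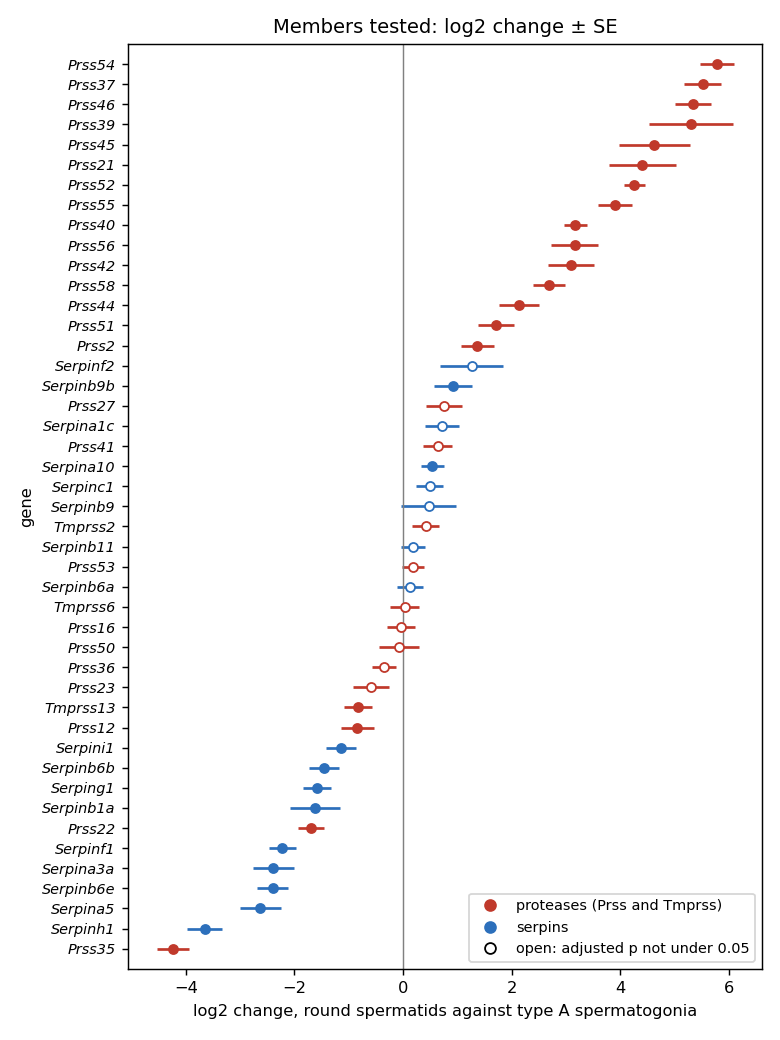
Log2 change in round spermatids against type A spermatogonia for the 45 members tested, on the log2(signal + 16) scale, with bars for the standard error of the fit (2 arrays against 2); filled points passed an adjusted p under 0.05. Proteases (red) take the top 15 places, up to 5.78 for Prss54, while serpins and Prss35, the lowest at -4.24, fill most of the lower end.

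Among proteases with a known place in the acrosome or on the sperm surface, Prss39, Prss40 and Prss21 rose by the pachytene stage. Prss39 and Prss40 encode the acrosomal proteases TESP1 and TESP2 of mouse sperm. They lie on chromosome 1 with 1 other protein-coding gene between them in the gene table. Prss39 gave a signal of 54.5 and 57.8 in type A, 22.4 and 292.9 in type B, 1010.6 and 1127.9 in pachytene cells and 2649.2 and 3034.6 in spermatids. Every spermatid array was above every pachytene array, and these above every spermatogonial one. Its log2 change was 3.31 ± 0.77 in pachytene cells against type B (adjusted p = 0.00691), 1.40 ± 0.77 in spermatids against pachytene cells (adjusted p = 0.206) and 5.30 ± 0.77 in spermatids against type A. The gap between the type B arrays widens this error in every comparison, because all groups share 1 estimate of the spread. Without type B replicate 1 or without replicate 2, the step of 1.40 from pachytene cells to spermatids passed at an adjusted p of 0.000416. The pachytene step itself was 4.82 without type B replicate 2 and 1.81 without replicate 1. Prss40 gave 41.8 and 42.3 in type A, 28.1 and 46.3 in type B, 155.5 and 160.2 in pachytene cells and 489.8 and 522.2 in spermatids. It rose in both steps, by 1.73 ± 0.21 and 1.59 ± 0.21 log2 (adjusted p = 0.000396 and 0.000887), without overlap between the stages from type B on. The first step was 1.98 without type B replicate 2 and 1.48 without replicate 1.

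Promoter bases of these 2 neighbours are printed because the genes rose together and their promoters hold the same run of 19 bases, the longest exact stretch they share there. Sequences are from RefSeq on GRCm38.p6, written 5′ to 3′ along the gene, with the shared run in capitals. The stretch of Prss39 is chr1:34498312-34498411 on the plus strand, bases -100 to -1 from its start. The stretch of Prss40 is chr1:34560982-34561011 on the minus strand, bases -68 to -39 from the start in the promoter table. In the gene table Prss40 begins upstream of that start, so its printed bases may lie within the gene.
Prss39: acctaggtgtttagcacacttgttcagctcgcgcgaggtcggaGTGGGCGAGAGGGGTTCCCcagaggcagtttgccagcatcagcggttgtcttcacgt
Prss40: gtgggGTGGGCGAGAGGGGTTCCCtagagg
The run begins at base -57 in Prss39 and at base -63 in Prss40. It is a description of 2 related genes and was not tested as a binding site.

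Prss21 encodes testisin, a protease anchored in the sperm membrane. Its signal was 32.7 and 28.7 in type A, 24.4 and 184.1 in type B, 532.9 and 698.5 in pachytene cells and 921.0 and 1028.4 in spermatids. Most of its increase lay before or in the pachytene stage, at 2.80 ± 0.61 log2 against type B (adjusted p = 0.00506). This step was 3.95 without type B replicate 2 and 1.65 without replicate 1. The further change in spermatids, 0.66 ± 0.61, did not pass (adjusted p = 0.459), but did without either type B array (adjusted p = 0.0273 in each case). Prss37 lacks a complete catalytic site and is needed in mice for the maturation of the sperm surface protein ADAM3. It read 3.8 and 1.3 in type A, 4.4 and 10 in type B, and 31.4 and 11.2 in pachytene cells, and reached 637.6 and 1085.7 in spermatids. Its change in spermatids against pachytene cells was 4.56 ± 0.34 (adjusted p = 6.66e-05) on the log2(signal + 16) scale. The pachytene signals lay under the array medians of 36.2 and 34.2, so the size of this step is set in part by the 16 added. Prss55, a membrane-anchored protease required for male fertility in mice, stayed between 31.1 and 85.2 up to the pachytene stage and read 699.1 and 961.5 in spermatids. It rose by 3.23 ± 0.31 log2 over pachytene cells (adjusted p = 0.000171). Its own pachytene step of 0.51 ± 0.31 did not pass (adjusted p = 0.192), but did under quantile normalization (0.80), centring on the 75th percentile (0.79) and without type B replicate 2 (0.92). These genes thus differ in when they appear: Prss21 and Prss39 were already high on both pachytene arrays, while Prss37 and Prss55 were high in spermatids alone.

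**Figure D2:**
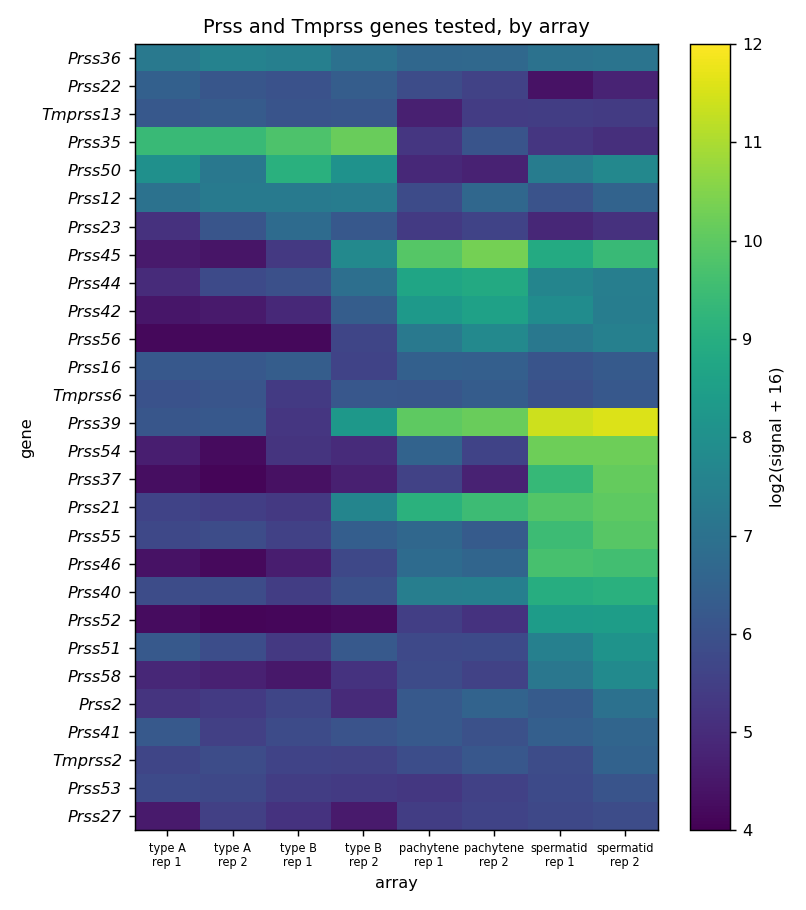
Signal of the 28 Prss and Tmprss genes tested, as log2(signal + 16) on a colour scale, with 1 row per gene and 1 column per array; rows are ordered by the stage of the highest mean signal. The bright block at the lower right is the spermatid-high group with Prss39, Prss54 and Prss21 brightest, and Prss35 is bright on the 4 spermatogonial arrays.

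In round spermatids against pachytene spermatocytes, 9 proteases were higher and 2 lower, with a median log2 change of 0.35. Of all genes, 15.9% were higher and 19% lower, with a median of -0.06. This comparison shares its pachytene arrays with pachytene cells against type B and its spermatid arrays with spermatids against type A, so the comparisons are not independent. Prss27, Prss37, Prss52, Prss53 and Serpinc1 entered the test through the 2 spermatid arrays alone, being under the array median on the other 6, so the filter itself favoured a higher spermatid value in them. Prss54, which lacks part of the catalytic triad, read 9.4 and 2.8 in type A, 20.6 and 15.9 in type B, 77.7 and 33.0 in pachytene cells and 1185.8 and 1186.7 in spermatids. It rose by 4.15 ± 0.31 over pachytene cells (adjusted p = 6.84e-05) and by 5.78 ± 0.31 over type A on the log2(signal + 16) scale, which understates changes from signals as low as those of type A. Prss46 read 4.9 and 2.4 in type A, 8.7 and 37.0 in type B, 94.8 and 81.0 in pachytene cells and 798.4 and 754.1 in spermatids. It rose in both steps, by 1.52 ± 0.33 and 2.93 ± 0.33 log2, the first being 2.07 without type B replicate 2 and 0.97 without replicate 1. Prss52 read 3.1 and 1.3 in type A and 1.7 and 2.9 in type B. It then read 28.6 and 20.1 in pachytene cells and 329.6 and 337.4 in spermatids, and its second step was 3.12 ± 0.19 log2. For these 3 genes no spermatid array overlapped an earlier one. They are described for their large changes, the filter favoured Prss52, and the share of all genes without such overlap was not counted.

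Smaller increases were seen in Prss51, Prss58 and Prss2. Prss51 changed by 0.00 ± 0.33 log2 in pachytene cells against type B and by 2.00 ± 0.33 in spermatids against pachytene cells (adjusted p = 0.00252). Its spermatid signals were 161.5 and 259.7, above the 24.4 to 59.7 of the other arrays. Prss58 read 129.6 and 210.5 in spermatids and 40.5 and 31.5 in pachytene cells, and rose by 1.81 ± 0.30. Its pachytene step of 0.85 and that of Prss54, 0.99, depended on single arrays. Prss58 missed the threshold without type A replicate 1 or 2 (adjusted p = 0.0546 each), type B replicate 1 (0.52), pachytene replicate 1 (0.73) or pachytene replicate 2 (0.98), and with a pseudocount of 64 (0.37). Prss54 missed it without type B replicate 2 (0.89) or pachytene replicate 1 (0.52). Prss2 encodes an anionic trypsin known from the pancreas, and its probe set is of a type that can bind related transcripts, so its identity here is uncertain. It passed at 1.08 ± 0.31 in pachytene cells against type B, but the other 3 probe sets of the gene gave -0.56, 0.03 and 0.41. The call was lost on the mean of its probe sets (0.24) and without type B replicate 2 (0.73) or pachytene replicate 2 (0.93). In spermatids against type A it was 1.37 ± 0.31, and 0.53 on the mean of its probe sets, which did not pass.

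A second pattern was a maximum in pachytene spermatocytes. In pachytene spermatocytes against type B spermatogonia, 12 proteases were higher and 5 lower, with a median of 0.57. Of all genes, 25.5% were higher and 32.7% lower, with a median of -0.07. The counts were 15 and 3 with quantile normalization, 17 and 3 with centring on the 75th percentile, 12 and 6 without type B replicate 2, and 13 and 4 without type B replicate 1. Prss42, which in mice is reported to be needed for the survival of meiotic germ cells, read 6.6 and 8.0 in type A, 14.5 and 65.6 in type B, 297.0 and 366.1 in pachytene cells and 218.9 and 153.4 in spermatids. It rose by 2.79 ± 0.42 log2 in pachytene cells (adjusted p = 0.000859), or 3.50 without type B replicate 2 and 2.08 without replicate 1. Prss45 read 8.1 and 6.0 in type A, 23.9 and 201.2 in type B, 939.9 and 1265.8 in pachytene cells and 458.3 and 673.4 in spermatids, a pachytene step of 3.57 ± 0.66 (adjusted p = 0.00225), or 4.79 without type B replicate 2 and 2.35 without replicate 1. Prss56, known for its role in eye growth, read at most 2.2 in type A, 2.1 and 34.9 in type B, 134.5 and 199.9 in pachytene cells and 130.8 and 163.0 in spermatids, a step of 2.57 ± 0.44, or 3.32 and 1.82 without the same arrays. The pachytene and spermatid arrays of Prss56 overlapped, while those of Prss42 and Prss45 did not.

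Prss44, a relative of Prss42 expressed in spermatocytes, read 15.4 and 39.4 in type A, 45.8 and 104.9 in type B, 397.2 and 444.4 in pachytene cells and 181.5 and 155.6 in spermatids. It rose by 2.34 ± 0.37 log2 in pachytene cells (adjusted p = 0.00105), with 2.82 when type B replicate 2 was left out and 1.85 when replicate 1 was. It fell by 1.24 on the log2 scale in spermatids (adjusted p = 0.0308). This fall lost its call without pachytene replicate 1 (-1.32), pachytene replicate 2 (-1.17), spermatid replicate 1 (-1.35) or spermatid replicate 2 (-1.14), with quantile normalization (-1.0) and on the mean of its 4 probe sets (-0.78). The spermatid changes of Prss42 and Prss45, -0.79 ± 0.42 and -0.95 ± 0.66, did not pass (adjusted p = 0.184 and 0.31). They passed without either type B array, at adjusted p of 0.0182 and 0.0126. All 4 proteases with a pachytene maximum and a call were still higher in spermatids than in type A. Their changes ran from 2.14 ± 0.37 for Prss44 to 4.63 ± 0.66 for Prss45. The other probe sets of Prss44 gave smaller changes in that comparison, at 0.56, 0.62 and 0.48. For its pachytene step they gave 1.88, 1.08 and 0.45.

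Of the 12 proteases higher in pachytene cells, 10 read higher on type B replicate 2 than on replicate 1. The excess of replicate 2 was 16.2% of the excess of pachytene cells over replicate 1 at the median, with 27% for Prss21, 25.8% for Prss39 and 16.4% for Prss45, and it ran from -58.1% for Prss2 to 45.5% for Prss58. Over all genes tested, the type B duplicates correlated at 0.8855, beside 0.9622 in type A, 0.9802 in pachytene cells and 0.9808 in spermatids. The same excess was not computed over all genes, so these values do not set the proteases apart. Pachytene markers stood high on type B replicate 2 as well, and their part in these values was not tested.

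**Figure D3:**
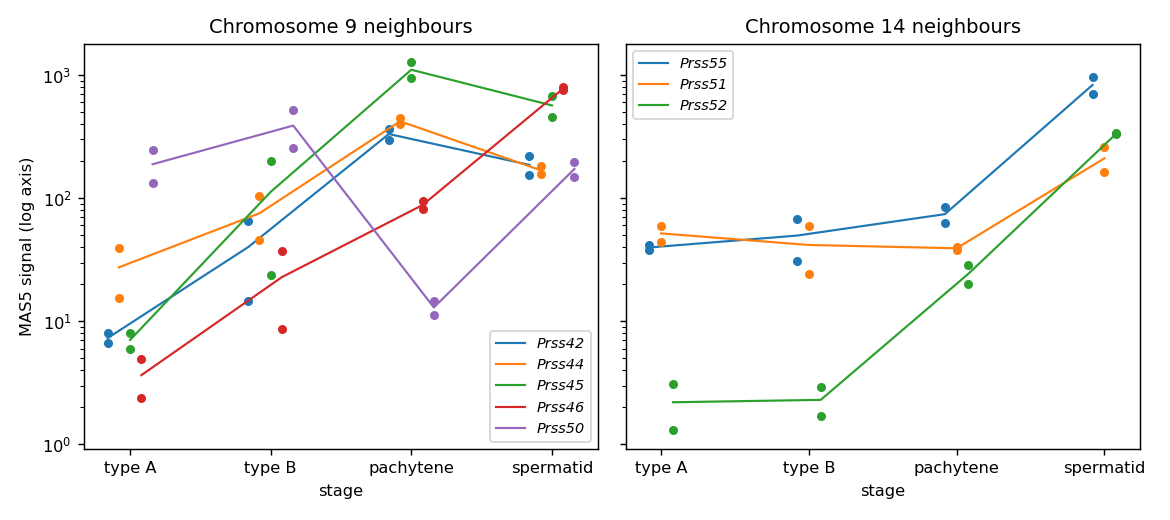
Signal on a log axis at each stage for 5 neighbouring proteases of chromosome 9 (left) and 3 of chromosome 14 (right); points are single arrays, lines join the means, and points are shifted sideways for sight. On chromosome 9, Prss42, Prss44 and Prss45 peak in pachytene cells, Prss46 peaks in spermatids and Prss50 is lowest in pachytene cells, while the 3 genes of chromosome 14 all peak in spermatids.

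Several of these genes are direct neighbours among protein-coding genes, the only ones counted for gene order. In the gene table, Prss42, Prss44, Prss43, Prss45, Prss46 and Prss50 follow each other on chromosome 9 with no other protein-coding gene between them. Prss43 was not analysed here. Within this run the stage of the highest mean signal was pachytene for Prss42, Prss44 and Prss45, spermatid for Prss46 and type B for Prss50. Prss45 read 939.9 and 1265.8 in pachytene cells, against 23.9 and 201.2 in type B. Prss50, known as TSP50 and carrying a threonine where the catalytic serine is usual, read 14.6 and 11.3 in pachytene cells, against 519.8 and 256.9 in type B. On chromosome 14, Prss55, Prss51 and Prss52 are neighbours with no other protein-coding gene between them, and all were highest in spermatids. Chromosome 17 holds 10 protein-coding Prss genes in the table, of which 8 were measured and 4 tested. Their patterns were unlike: Prss21 rose to spermatids, Prss22 fell, and Prss27 and Prss41 passed in no comparison.

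Promoter bases of 4 of the chromosome 9 neighbours are shown, since these adjacent genes had unlike courses. They are again from RefSeq on GRCm38.p6, all on the plus strand. Capitals mark CACGTG, the E-box letters, which were looked for after the other motifs. Positions are chr9:110798124-110798153 for Prss42 (bases -61 to -32), where the gene begins upstream of the promoter table's start and the bases may lie within it, and bases -100 to -1 for Prss45 at chr9:110834488-110834587, Prss46 at chr9:110844406-110844505 and Prss50 at chr9:110857864-110857963.
Prss42: acggagggcggcCACGTGagcctggggagc
Prss45: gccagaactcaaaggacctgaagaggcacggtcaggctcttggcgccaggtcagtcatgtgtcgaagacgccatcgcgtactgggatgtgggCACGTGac
Prss46: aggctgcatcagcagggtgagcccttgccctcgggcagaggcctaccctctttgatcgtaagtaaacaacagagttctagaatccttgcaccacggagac
Prss50: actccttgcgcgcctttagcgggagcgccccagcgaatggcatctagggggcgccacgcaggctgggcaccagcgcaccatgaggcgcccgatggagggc
CACGTG stands at base -49 in Prss42 and base -8 in Prss45, and in no printed base of Prss46 or Prss50. In the 250 bases upstream, on both strands, it was found in 3 of 34 tested members with a promoter in the table (Prss40, Prss42 and Prss45), beside 6.02% of 32851 promoters. Prss40 was highest in spermatids, and the pachytene-high Prss44 was not searched, so no link of these letters to a stage is shown. The cyclic AMP response element TGACGTCA and its looser form TGACGNNA were in 0 of 34, beside 1.55% and 5.66% of promoters. GCCAAT was in 4 of 34 (Prss21, Prss54, Serpinf1 and Serpini1), beside 13.5%, and TATAAA in 2 of 34 (Prss2 and Serpina3a), beside 12.4%. For every motif, a member counted when any of its promoters held the letters, while the percentages are of single promoters. The member counts and these percentages are therefore not like for like. A missing match says only that these letters are not in this window.

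Fewer proteases were highest in spermatogonia, and Prss35 had the widest change among them. Prss35 encodes a secreted protein with an altered catalytic serine, known from the ovary. It read 669.4 and 666.7 in type A, 853.5 and 1142.3 in type B, 22.7 and 51.3 in pachytene cells and 22.6 and 17.8 in spermatids. It fell by 4.30 on the log2 scale (SE 0.29) in pachytene cells against type B, which is 19.7-fold (adjusted p = 7.56e-05), and by 4.24 (SE 0.29) in spermatids against type A. Its mean in pachytene cells was 3.71% of that in type B, and the summed peritubular and stromal markers stood at 5.3% there. All 8 of those markers were lower in pachytene cells as well, beside 32.7% of all genes tested. In spermatids Prss35 stood at 54.6% of its pachytene mean and the summed markers at 134% of theirs. The part of stromal cells in the fall of Prss35 was not tested. Prss50 read 244.2 and 132.8 in type A and, with the other values above, 148.7 and 196.4 in spermatids. It fell by 3.73 (SE 0.37) in pachytene cells (adjusted p = 0.000188) and rose by 2.69 ± 0.37 in spermatids (adjusted p = 0.00102), and its change in spermatids against type A was -0.07 ± 0.37 (adjusted p = 0.869). Prss50 was thus the only one of the 45 members called lower in pachytene cells and higher in spermatids by more than 1 on the log2 scale each.

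Falls of smaller size were seen in 4 other proteases. Prss22, a tryptase, read 70.8 and 53.8 in type A, 48.1 and 65.3 in type B, 41.6 and 31.5 in pachytene cells and 4.8 and 12 in spermatids. It fell by 1.12 (SE 0.24) in spermatids against pachytene cells (adjusted p = 0.00874), a call lost without pachytene replicate 1 (-0.98) or spermatid replicate 1 (-0.90), and by 1.69 (SE 0.24) against type A. Prss12, which encodes neurotrypsin, the protease that cuts agrin, read 41.3 and 86.8 in pachytene cells, against 138.9 and 147.6 in type B, a change of -1.05 ± 0.31 (adjusted p = 0.0192). Tmprss13, a transmembrane protease, read 9.9 and 27.1 in pachytene cells, against 51.1 and 55.3 in type B, a change of -1.05 ± 0.25 (adjusted p = 0.00821). Prss23, on a probe set that can bind related transcripts, changed by -1.01 ± 0.34 (adjusted p = 0.0333), with signals of 24.8 and 33.0 in pachytene cells, against 95.1 and 57.4 in type B.

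Several of these calls rested on single arrays. The pachytene calls were lost without pachytene replicate 1 for Prss12 (-0.63), Tmprss13 (-0.68) and Prss23 (-0.88), and for Prss23 also without type B replicate 1 (-0.72), pachytene replicate 2 (-1.15) or spermatid replicate 1 or 2 (-1.01 each). Quantile normalization ended those of Prss12 (-0.72) and Prss23 (-0.75), as did centring on the 75th percentile (-0.74 and -0.75). The mean of its probe sets also ended that of Prss23 (-0.51). In spermatids against type A, Prss23 changed by -0.59 ± 0.34 and passed without type A replicate 1 (-1.07). In spermatids against type A, Prss12 and Tmprss13 passed at -0.84 ± 0.31 and -0.83 ± 0.25 (adjusted p = 0.0391 and 0.0182). Prss12 did not pass there without type A replicate 1 (-0.97), type A replicate 2 (-0.71) or spermatid replicate 1 (-0.58). Tmprss13 did not without type A replicate 1 (-0.87), type A replicate 2 (-0.79), spermatid replicate 1 (-0.87) or spermatid replicate 2 (-0.80), and neither passed under quantile normalization (-0.37 and -0.51).

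Among the serpins, 7 were lower and 1 higher in pachytene cells against type B, with a median of -0.29, beside 32.7% of all genes lower and 25.5% higher; with quantile normalization 5 were lower and 2 higher, and with centring on the 75th percentile 7 and 3. Serpinh1, the collagen chaperone HSP47 of the endoplasmic reticulum, read 686.9 and 1279.5 in type A, 1097.5 and 1384.7 in type B, 22.0 and 40.1 in pachytene cells and 57.4 and 62.6 in spermatids. It fell by 4.76 (SE 0.32) on the log2 scale, or 27-fold, in pachytene cells (adjusted p = 7.56e-05), the widest fall of the 45 members in that comparison. Serpinf1, the secreted factor PEDF, which limits vessel growth and inhibits no protease, read 336.1 and 390.5 in type A, 526.8 and 724.6 in type B, 28.5 and 35.7 in pachytene cells and 55.9 and 76.3 in spermatids, a change of -3.72 ± 0.24. Serping1, the inhibitor of the complement proteases C1r and C1s, read 382.8 and 629.2 in type A, 638.4 and 678.8 in type B, 88.8 and 99.1 in pachytene cells and 175.3 and 135.0 in spermatids, a change of -2.62 ± 0.26. For all 3 genes, no spermatogonial array overlapped a later one. These 3 are described for their wide falls, and the share of all genes without such overlap was not counted.

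**Figure D4:**
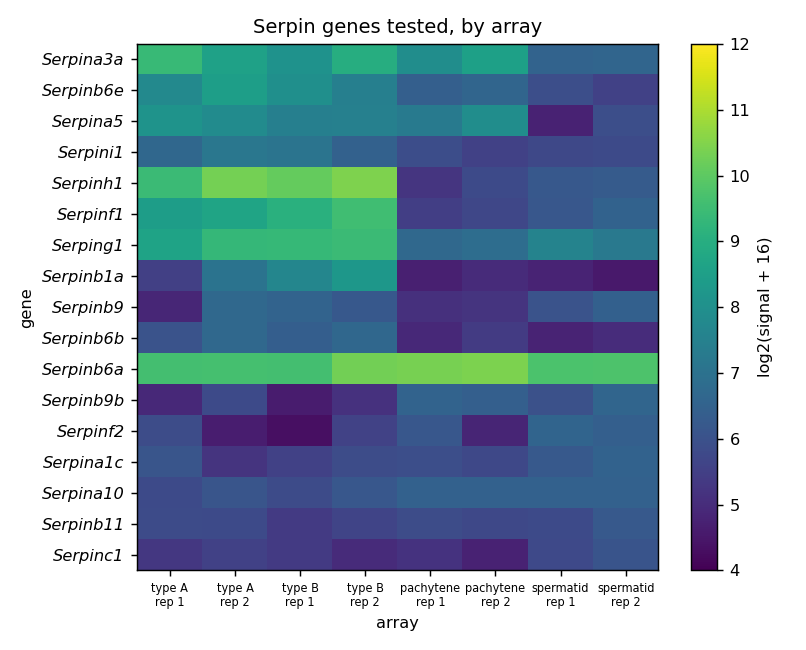
Signal of the 17 serpins tested, as log2(signal + 16) on a colour scale, with 1 row per gene and 1 column per array; rows are ordered by the stage of the highest mean signal. Serpinh1, Serpinf1 and Serping1 are bright on the 4 spermatogonial arrays, Serpina3a and Serpina5 stay bright to the pachytene arrays, and Serpinb6a is bright on all 8.

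Markers of peritubular and stromal cells moved with these 3 serpins. The 8 markers summed to 795.7 and 1072 in pachytene cells, against 17040 and 18170 in type B. Of these, 8 of 8 were lower, beside 32.7% of all genes tested. Col1a1, a chain of the collagen that Serpinh1 folds, read 2.1 and 5.4 in pachytene cells, against 1779.9 and 1755.9 in type B. As a share of the type B mean, the pachytene mean was 2.5% for Serpinh1, 5.13% for Serpinf1, 14.3% for Serping1 and 5.3% for the summed markers. In spermatids the same serpins stood at 193%, 206% and 165% of their pachytene mean and the markers at 134%, with 3 of 8 markers higher. Only Serpinf1 passed in that step, at 0.76 ± 0.24 (adjusted p = 0.0373), and it did so neither with a pseudocount of 64 (0.43) nor without type A replicate 1 or 2 (0.76 each), pachytene replicate 1 (0.66) or 2 (0.87), or spermatid replicate 1 (0.94) or 2 (0.58). Serpinh1 and Serping1 changed there by 0.72 ± 0.32 and 0.63 ± 0.26 (adjusted p = 0.127 and 0.101). Summed macrophage and blood cell markers stood at 28.9% of their type B mean in pachytene cells. In spermatids they stood at 192% of their pachytene mean. A fall and partial return was thus not particular to the stromal markers. Whether the transcripts of the 3 serpins come from stromal or other cells in the preparations was not tested.

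A further 4 serpins fell at the same step. Serpinb1a, which inhibits neutrophil elastase, read 29.5 and 116.6 in type A, 188.3 and 288.1 in type B, 10 and 15.5 in pachytene cells and 11.5 and 7.3 in spermatids, a pachytene change of -3.12 ± 0.46 (adjusted p = 0.000765). Its type A arrays lay below its type B arrays, without a call (1.68 ± 0.46, adjusted p = 0.487). In spermatids against type A it passed at -1.62 ± 0.46 (adjusted p = 0.0125), but not without type A replicate 2 (-0.85) or spermatid replicate 2 (-1.50). Macrophage and blood cell markers summed to 241.4 and 254.5 in pachytene cells, against 864 and 851.2 in type B. In spermatids they summed to 485.1 and 467.2, or 192% of their pachytene mean, where Serpinb1a stood at 73.7%. As a share of the type B mean, the pachytene mean was 5.35% for Serpinb1a and 28.9% for these markers. The summed peritubular and stromal markers stood at 5.3% in that step and at 134% in the next. The part of any of these cell types was not tested. Serpinb6b and Serpinb6e, relatives of the intracellular cathepsin G inhibitor Serpinb6a, changed by -1.39 ± 0.28 and -1.19 ± 0.29 (adjusted p = 0.00346 and 0.0089). Serpini1, or neuroserpin, an inhibitor of tissue plasminogen activator, changed by -1.05 ± 0.27 (adjusted p = 0.0109). Serpinb6e lost its pachytene call without pachytene replicate 1 (-1.10) and with quantile normalization (-0.85), and Serpini1 without pachytene replicate 2 (-0.89), with quantile normalization (-0.75) and on the mean of its probe sets (-0.49).

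In spermatids against pachytene cells, 2 serpins were lower and 2 higher, with a median of 0.06, beside 19% of all genes lower and 15.9% higher. Serpina5, the protein C inhibitor, whose loss makes male mice infertile, read at overlapping levels in type B and pachytene cells. It read 259.5 and 215.3 in type A, 158.4 and 161.3 in type B, 141.3 and 228.2 in pachytene cells and 11.2 and 45.2 in spermatids. Its change was 0.16 ± 0.38 in pachytene cells against type B (adjusted p = 0.745) and -2.26 ± 0.38 in spermatids against pachytene cells (adjusted p = 0.00257). Serpina3a, of the antichymotrypsin group, is the protein-coding gene next to Serpina5 on chromosome 12. It read 650.7 and 365.4 in type A, 252.6 and 487.0 in type B, 227.1 and 354.9 in pachytene cells and 78.4 and 82.6 in spermatids, with changes of -0.29 ± 0.38 and -1.64 ± 0.38 in the same steps (adjusted p = 0.538 and 0.0114). The second was lost without pachytene replicate 2 (-1.33), spermatid replicate 1 (-1.61) or spermatid replicate 2 (-1.67). For both genes the type B and pachytene arrays overlapped, and every spermatid array was the lowest. The share of all genes with this order was not counted.

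**Figure D5:**
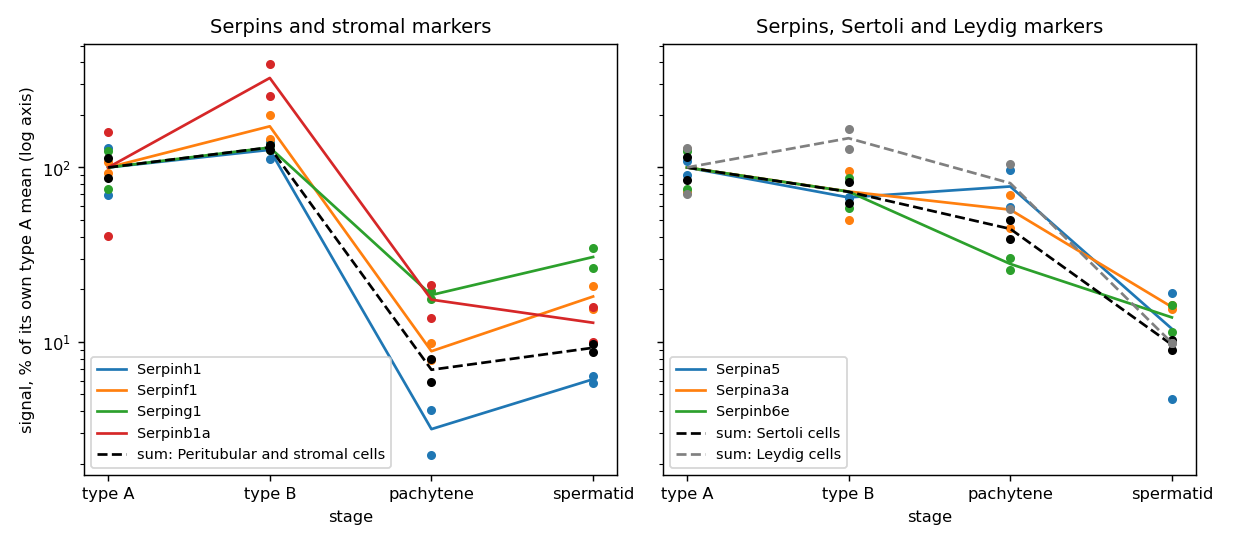
Signal at each stage as percent of the mean of the 2 type A arrays, on a log axis, for serpins (solid lines) and summed markers of somatic cells (dashed lines); points are single arrays and lines join the means. On the left, Serpinh1, Serpinf1, Serping1 and Serpinb1a drop at the pachytene stage with the stromal markers. On the right, Serpina5 and Serpina3a drop in spermatids, as do the Sertoli and Leydig cell markers.

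Like Serpina5 and Serpina3a, summed Sertoli and Leydig cell markers were lower in spermatids than in pachytene cells. The pachytene mean was 116% of the type B mean for Serpina5, 78.7% for Serpina3a, 61.3% for the 9 summed Sertoli markers and 55.2% for the 4 Leydig markers measured. The spermatid mean was 15.3% of the pachytene mean for Serpina5, 27.7% for Serpina3a, 21.7% for the Sertoli and 12.1% for the Leydig markers. Of the Sertoli markers 6 of 9, and of the Leydig markers 4 of 4, were lower in spermatids than in pachytene cells. The share of all genes tested was 19%. Of the same markers, 6 of 9 and 1 of 4 were also lower in pachytene cells than in type B. There 32.7% of all genes tested were lower, and neither Serpina5 nor Serpina3a passed. Cst9 and Cst12, cystatins that Sertoli cells express, stood at 88.3% and 45.3% in the first of these steps and at 23.3% and 20.3% in the second. The part of these cells in the serpin values was not tested. Serpinb6e lay between the 2 courses, at 38.5% and 49.3%, with signals of 203.7 and 338.8 in type A, 235.2 and 159.2 in type B, 70.0 and 81.8 in pachytene cells and 44.1 and 30.8 in spermatids. Its change in spermatids against pachytene cells, -0.79 ± 0.29, passed without either type B array (adjusted p = 0.0375 in each case). Its probe set is also of a type that can bind related transcripts.

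Few serpins were higher in the later cells. Serpinb9b, a relative of the granzyme B inhibitor, read 14 and 40 in type A, 8.3 and 19.1 in type B, 77.0 and 69.0 in pachytene cells and 47.0 and 81.0 in spermatids. It rose by 1.61 ± 0.35 log2 in pachytene cells (adjusted p = 0.00507). In spermatids against type A it passed at 0.93 ± 0.35 (adjusted p = 0.0421), and did not without type A replicate 1 (0.48), pachytene replicate 1 or 2 (0.93 each) or spermatid replicate 2 (0.62), or with no filter on low signal (0.93). Serpina10, the inhibitor that works with protein Z, read 72.6 to 73.6 on the 4 later arrays, against 39.6 to 55.9 on the spermatogonial ones. Its change of 0.54 ± 0.21 in spermatids against type A (adjusted p = 0.0459) was lost without type A replicate 1 (0.39), pachytene replicate 1 or 2 (0.54 each) or spermatid replicate 1 (0.53) or 2 (0.54), at a pseudocount of 64 (0.32) and in the absence of the filter on low signal (0.54). Serpinc1, or antithrombin, named after its values were seen and among the members that entered the test through the spermatid arrays alone, passed in spermatids against pachytene cells at 0.94 ± 0.25 (adjusted p = 0.0192), with signals of 38.0 and 51.3 in spermatids, against 20.3 and 11.2 in pachytene cells. Serpinb6a gave a signal on every array, at 766.7 and 780.5 in type A, 762.6 and 1237.4 in type B, 1283.9 and 1355.8 in pachytene cells and 840.5 and 854.1 in spermatids. It passed in no comparison, and its pachytene and spermatid arrays did not overlap (-0.63 ± 0.24, adjusted p = 0.0812).

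Between type B and type A spermatogonia no member passed, and 0 of all genes did (0% higher and 0% lower by limma, 1383 genes at an unadjusted p under 0.05). Of the members, 6 proteases and 2 serpins were under an unadjusted p of 0.05, with medians of 0.11 and 0.04 beside -0.00 for all genes. The smallest adjusted p was 0.487 among the members. The largest such change was that of Prss45, which gave 23.9 and 201.2 on the type B arrays and 8.1 and 6.0 on those of type A (2.02 ± 0.66, adjusted p = 0.487). Without type B replicate 1, which leaves replicate 2 alone for that stage, Prss21 (2.10), Prss39 (2.10), Prss42 (1.81), Prss44 (1.54), Prss45 (3.24), Prss46 (1.43) and Prss56 (1.49) passed as higher in type B, with Serpinf1 (0.97) and Serpinb1a (1.97). Without type B replicate 2, none passed.

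Other genes of protease systems, on a list of 65 of which 62 were measured and 42 tested, held both courses. In pachytene cells against type B 8 were higher and 21 lower, in spermatids against pachytene cells 8 and 8, and in spermatids against type A 9 and 23. The shares of all genes were 25.5% and 32.7%, 15.9% and 19%, and 28.2% and 41.9%. Acr, the precursor of the main acrosomal protease acrosin, read 41.0 and 65.0 in type A, 64.3 and 479.2 in type B, 1743.7 and 1925.6 in pachytene cells and 2235.8 and 2208.0 in spermatids, a pachytene step of 3.21 ± 0.69. Spink2, a Kazal-type inhibitor of the acrosome and no serpin, read 40.9 and 31.5 in type A, 22.0 and 807.4 in type B, 2394.5 and 2758.0 in pachytene cells and 2481.5 and 2572.8 in spermatids, a step of 3.87 ± 1.12 (adjusted p = 0.0183). In spermatids against pachytene cells Acr and Spink2 changed by 0.28 ± 0.69 and -0.02 ± 1.12, neither past the test (adjusted p = 0.805 and 0.99). Zp3r, an acrosomal protein, came later, at 4.28 ± 0.27 in spermatids against pachytene cells. Corin, a transmembrane protease known from the heart, read 21.3 and 49.0 in type B, 169.8 and 249.1 in pachytene cells and 41.0 and 54.5 in spermatids. Among those that fell with Serpinh1 in pachytene cells were the secreted protease Htra3 (-4.83 ± 0.36) and C1ra and C1s1 (-3.73 ± 0.26 and -3.01 ± 0.23), the complement proteases that Serping1 inhibits.

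The remaining 38 members were not tested, because their signal was above the median of its array on fewer than 2 of 8 arrays. Their highest signal on any array was 52.0, in Tmprss4, and 30 of them never reached 30. They were 6 Prss genes, 9 of the 12 Tmprss genes and 23 serpins, and at this signal no course could be read. Of the 45 members tested, 12 passed in no comparison. Where a called member had several probe sets, all of them changed the same way in 5 of 8 cases in pachytene cells against type B, 4 of 4 in spermatids against pachytene cells and 7 of 8 in spermatids against type A. For Prss37, however, the second probe set gave 0.89 in spermatids against pachytene cells where the stronger one gave 4.56, and for Serpinh1 the values were -3.62 and -4.76 in pachytene cells against type B. Serpine2, Prss43 and Tmprss12, which have known or likely roles in the testis, were not analysed here.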

How the data were processed

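Labelled total RNA of 8 samples was hybridized to 1 array each. The authors deposited 1 linear intensity (MAS5 signal, per the submitters' processing notes; version not given in the sources used here) per probe set. The mean of each array was 125 once 2% of probe sets at either end were left out, so the values had been scaled. Median signals ran from 33.7 to 51.9. Depth has no meaning here, and the number of arrays limits precision.

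Of 45101 probe sets, 34945 listed exactly 1 gene in the platform annotation, and 34741 of these matched the RefSeq gene table (GRCm38.p6), used for names, chromosomes and gene order. Each gene is its probe set with the highest mean signal, tested when above the array's median on at least 2 of 8 arrays. log2(signal + 16), which understates changes of low signals, was fitted with limma 3.58.1 in R 4.3.3 (1 mean per group, eBayes, two-sided). P-values were Benjamini-Hochberg adjusted over 14155 genes and called under 0.05. The ± is the SE of that fit, from 2 arrays against 2 with the spread shared by 4 groups.

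The members, gene lists, named genes (each protease called, up to 15 serpins called in a comparison with spermatogonia, and 16 names with a testis role) and motifs were chosen with earlier results of these data known. Alternatives were a pseudocount of 64, no filter, quantile normalization, centring on the 75th percentile, the mean of a gene's probe sets, a replicate block and leaving out each array. The fit was tested on simulated data.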

Additional observations from a re-analysis of the deposited data

How the results depend on the processing

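Over 128 pairs of a named member and a comparison and 14 alternative settings, 1694 of 1792 values stayed on their side of the threshold, 26 newly passed and 72 no longer passed. Among the 1694, 80 that had not passed moved by more than their SE. None changed direction while called. Proteases higher stayed between 10 and 13 in pachytene cells against type B, 9 and 11 in spermatids against pachytene cells and 15 and 17 in spermatids against type A when 1 array was left out, and serpins lower between 6 and 8, 1 and 4, and 8 and 9. Leaving out 1 array gave 2 to 6, 0 to 4 and 2 to 4 proteases lower and 1 to 3, 0 to 2 and 0 to 3 serpins higher in those comparisons, and, in type B against type A, 0 to 7 proteases and 0 to 2 serpins higher and 0 of either lower. Quantile normalization gave 2 serpins higher (main value 1) and 3 proteases lower (5) in pachytene cells against type B, 1 protease lower (2) in spermatids against pachytene cells, and 6 serpins higher (2) and 2 proteases lower (4) in spermatids against type A. Centring on the 75th percentile gave 3 and 3 in the first comparison and 5 and 2 in the last. A pseudocount of 64 gave 1 serpin higher in each comparison with spermatids. The mean of all probe sets gave 1 protease lower in spermatids against pachytene cells. Both scalings raised the median of all genes, by 0.14 and 0.30 in pachytene cells against type B and by 0.25 and 0.42 in spermatids against type A; beyond these shifts the cause was not tested. With the replicate number as a block, the counts of proteases higher were 12, 9 and 15 and no call of a named member changed. The labels do not say whether the replicate numbers pair samples across stages. Replicate differences correlated between stages at -0.18 to 0.17, and the duplicates came from independent preparations. Neither point settles whether stages shared a preparation. Changes from signals under the array's median are sized in part by the pseudocount.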
